A study of Mus musculus with 8 samples.

Results

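The genes described here encode chromatin modifiers and remodellers, the proteins that write, erase and read marks on histones and DNA or move nucleosomes. They were taken from a fixed list of 58 symbols, matched to probe sets that the platform annotation gives a single gene symbol, with the brightest probe set standing for each gene. Of the 58 genes, 57 had such a probe set and 55 passed a filter on low signals, out of 9941 genes that passed it on the array. Suv39h1 had no single-symbol probe set and is not analysed here, and Chd7 and Tet3 were under the filter. The list was drawn up with earlier results of these data known, so its counts are read against all genes tested.

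RNA came from double-positive thymocytes, developing T cells with CD4 as well as CD8 on their surface, and was measured on 8 Affymetrix Mouse 430 2.0 arrays with 1 mouse on each. By title and genotype field, 4 mice were c-Myb deficient and 4 were c-Myb sufficient. Mice of both groups were 4 to 5 weeks old, lacked the T-cell receptor alpha gene (Tcra-/-) and carried Cd4-Cre, a recombinase driven by Cd4 sequences that acts in cells which have switched Cd4 on. Cells were enriched with an antibody against CD4 on magnetic columns. The source names contradict the genotype field. They give the deficient mice the Mybf/w and the sufficient mice the Mybf/f genotype. Groups are called here by their title and genotype field, and each difference is deficient minus sufficient. Which label is right could not be settled from these data. If the source names are right, every difference given below has the opposite sign.

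In differentiating thymocytes, Polycomb complexes keep inactive genes silent, remodellers of the SWI/SNF, ISWI and CHD families use ATP to slide or evict nucleosomes, and deacetylases remove the acetyl groups that acetyltransferases add. DNA methyltransferases and TET enzymes set and oxidise methyl groups on cytosine. Several of these enzymes are needed at particular steps of T-cell development, among them the SWI/SNF ATPase BRG1 and the NuRD ATPase Mi-2β.

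The signal of Myb itself was not lower in the deficient mice. Its brightest probe set, 1421317_x_at, read 11530.2, 11754, 11365.9 and 10511.9 in deficient mice 1 to 4, against 10387.9, 10329.9, 8405.4 and 8326.5 in sufficient mice 1 to 4. All deficient values lay above all sufficient ones, with a log2 difference of 0.28 ± 0.08 (SE) and an adjusted p of 0.0619 in limma. A second probe set, 1422734_a_at, passed as higher, at 5458 to 6395.8 in deficient against 4183.2 to 5158.2 in sufficient mice (log2 0.36 ± 0.08, SE, adjusted p = 0.0298 over probe sets). The remaining probe set, 1450194_a_at, differed by 0.04 and its groups overlapped. Whether these probes fall inside the deleted stretch of Myb is not known here, so they do not check the genotype. Xist, a noncoding RNA made from an inactive X, also moved with the groups. It read 4128.7 to 5735.5 in all deficient mice and 4358.5 in sufficient mouse 1, but 23.4 to 36.7 in the other sufficient mice. Eif2s3y, a gene on the Y chromosome, showed the reverse, at 1217.2 to 1334.6 in those mice. It read 2.1 in sufficient mouse 1 and 1.3 to 15.2 in deficient mice. Kdm5d and Uty, also on the Y, split the mice in the same way. Sex read from these genes therefore went with group, except in sufficient mouse 1. Beyond the fit with Xist given below, the part of sex in the results was not tested. Deficient array 4 stood apart in its 18S ribosomal RNA control, which read 7142.7 against 676.1 to 1459.4 on the other arrays.

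Double-positive thymocyte markers were bright on every array. Of 9 listed, 8 had a probe set, and their summed signal was 51545.7 to 54898.5 in deficient and 53893.6 to 57524.3 in sufficient mice. Of these markers Rag2 and Dntt were lower in deficient mice (log2 -0.41 and -0.26). Summed erythroid markers were 999.5 to 1474.1 in deficient against 234.6 to 440.1 in sufficient mice. The carbonic anhydrase gene Car2 passed as higher, at 901.1 to 1346.5 in deficient against 120.4 to 279.2 in sufficient mice. Of the globin genes, Hba-a2 read 82.1 to 110.1 in deficient and 86 to 113.8 in sufficient mice, and Hba-a1 was below the low-signal limit on all arrays. Natural killer and gamma-delta markers summed to 3152 to 4334.3 in deficient against 2057.2 to 2600.4 in sufficient mice, mostly Gzma, with Ncr1 below the limit on all arrays. Macrophage and dendritic markers summed to 1365.8 to 1817.9 in deficient and 698.4 to 2093.1 in sufficient mice, and of the 7 tested only Ctss passed, as higher. B cell markers summed to 7626 to 8572.7 in deficient and 7113.6 to 7348 in sufficient mice, nearly all Ighm with Cd79b, and with Cd79a below the limit on all arrays. Thymic stroma markers summed to 798.5, 706.9, 634.6 and 530.4 in deficient mice, against 834.4, 838.9, 798.3 and 822.3 in sufficient mice. Most of that sum was Pecam1, and Pecam1 and Epcam differed by -0.36 and -0.57 on the log2 scale without passing in limma (adjusted p = 0.139 and 0.0796). Pdgfra and Col1a1 were below the limit on all arrays. Granulocyte markers summed to 78.9 to 216.5 in deficient and 53.7 to 117.6 in sufficient mice, with Ltf and Mpo below the limit on all arrays. The part of these markers in the results below was not tested.

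Of the 55 chromatin genes tested, 6 passed at an adjusted p under 0.05 (10.9%), a share near the 9.98% of all 9941 genes that passed the same limma test. The histone deacetylase gene Hdac4 and the remodeller genes Chd3 and Smarca2 were higher in deficient mice, and the remodeller genes Smarca4, Arid2 and Chd1 were lower. The 3 rises stand against 5.89% of all genes that were higher, and the 3 falls against 4.08% that were lower. Groups of mice did not overlap for 8 of the 55 genes (14.5%), against 17.0% of all genes. At an unadjusted p under 0.05 stood 15 of the 55 genes (27.3%) and 25.1% of all genes, the share against which unadjusted counts below are to be read. The median log2 difference was -0.04 over the 55 genes and 0.02 over all genes tested. In bulk RNA, fewer cells of a type and less RNA per cell cannot be told apart.

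**Figure D1:**
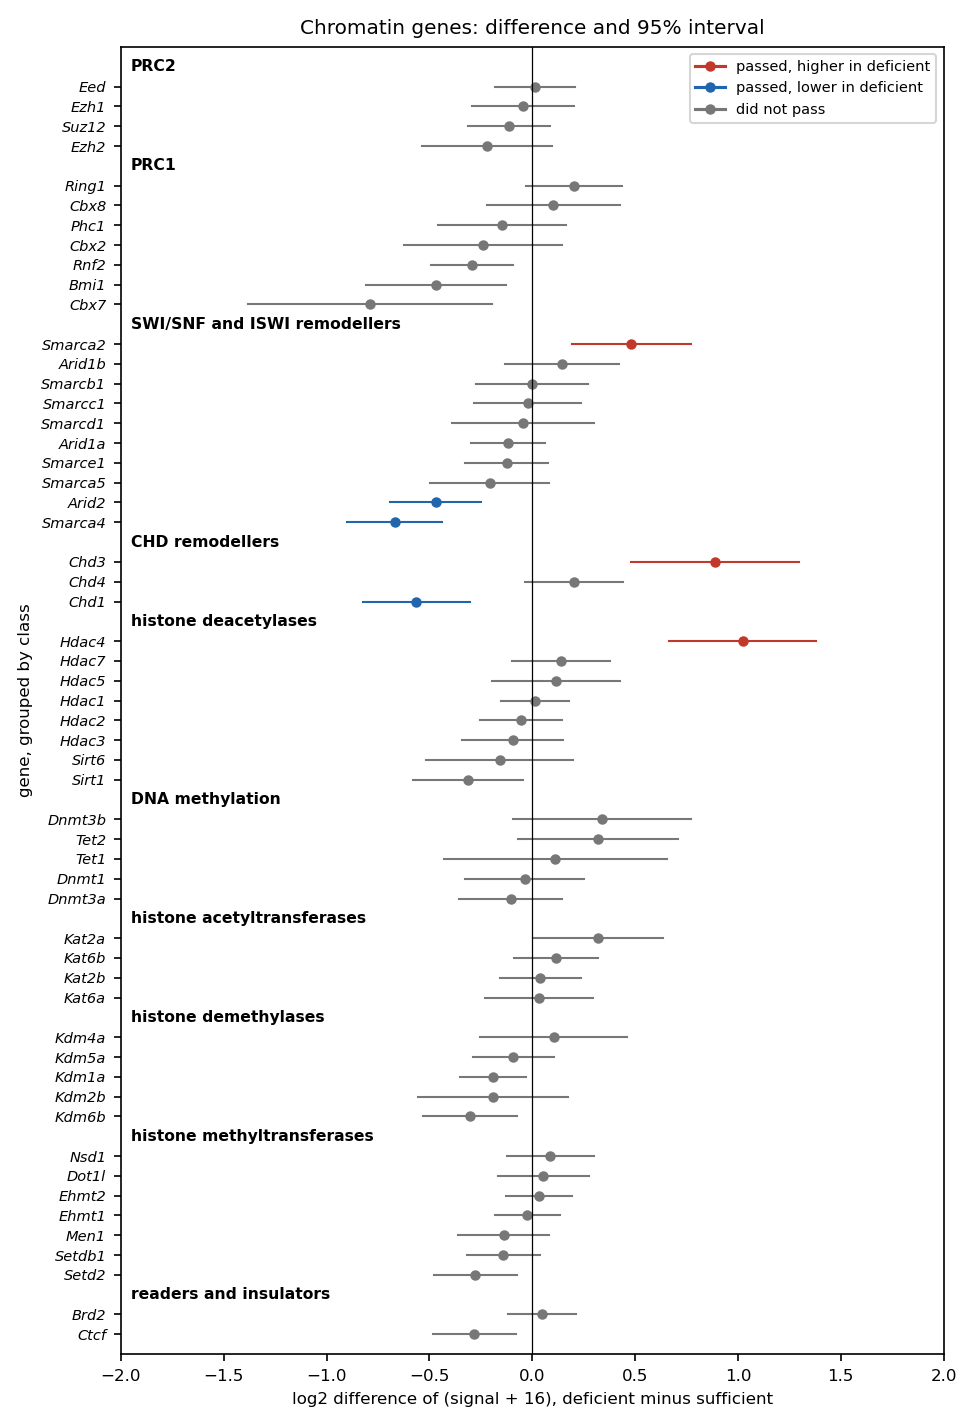
Log2 difference of signal plus 16, deficient minus sufficient, for the 55 chromatin genes tested, grouped by class, with 95% intervals from the limma fit. Hdac4, Chd3 and Smarca2 (red) passed as higher, and Arid2, Chd1 and Smarca4 (blue) as lower. The other 49 genes (grey) did not pass.

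SWI/SNF complexes carry 1 of 2 alternative ATPases, BRG1 (Smarca4) or BRM (Smarca2), and the genes of both ATPases changed, in opposite directions. Smarca4 (probe set 1426804_at) read 2498.4, 2256, 2049.5 and 2621.1 in deficient mice, against 3855.7, 4392.2, 3435.1 and 3361.6 in sufficient mice. The highest deficient mouse was below the lowest sufficient mouse. The means were 2356 ± 255 in deficient and 3761 ± 474 in sufficient mice (SD, n = 4 each), a log2 difference of -0.67 ± 0.11 (SE, adjusted p = 0.00302 in limma), or 1.59-fold lower. Its second probe set, 1426805_at, gave -0.65 (adjusted p = 0.0112 over probe sets).

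Smarca2 (1430526_a_at) read 449.6, 557.2, 615 and 398 in deficient mice, against 343, 333.2, 368.7 and 363.5 in sufficient mice. Deficient mouse 4 lay closest to the sufficient group, whose values kept within a narrow range. The log2 difference was 0.48 ± 0.13 (SE), or 1.40-fold higher, and the adjusted p of 0.0426 was near the limit. The call was lost in 7 of the 8 fits that left out 1 mouse, with adjusted p up to 0.126, and was kept without deficient mouse 4 (0.0119). A second probe set, 1452333_at, differed by 0.24 and did not pass (adjusted p = 0.364 over probe sets), and neither probe set passed when all probe sets were tested.

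Upstream sequence shows what kind of promoters the opposed ATPase genes and Hdac4 have, as 3 of the 6 changed genes are in the promoter table. The 250 bases before each start site are given 5′ to 3′ from RefSeq on GRCm38.p6, with capitals for matches to AACTG or AACGG on either strand, forms of the core that Myb proteins bind.
Smarca4, chr9:21615919-21616168, plus strand: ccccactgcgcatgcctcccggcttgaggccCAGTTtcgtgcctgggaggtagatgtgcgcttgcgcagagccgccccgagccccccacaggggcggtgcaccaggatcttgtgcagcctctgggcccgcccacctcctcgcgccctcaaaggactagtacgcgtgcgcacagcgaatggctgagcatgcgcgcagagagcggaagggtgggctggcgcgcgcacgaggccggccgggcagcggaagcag
Smarca2, chr19:26604910-26605159, plus strand: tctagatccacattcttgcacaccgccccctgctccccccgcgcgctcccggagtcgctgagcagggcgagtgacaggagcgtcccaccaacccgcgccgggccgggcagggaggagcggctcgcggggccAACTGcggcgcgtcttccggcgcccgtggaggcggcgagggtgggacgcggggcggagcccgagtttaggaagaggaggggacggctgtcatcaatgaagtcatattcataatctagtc
Hdac4, chr1:92180342-92180591, minus strand: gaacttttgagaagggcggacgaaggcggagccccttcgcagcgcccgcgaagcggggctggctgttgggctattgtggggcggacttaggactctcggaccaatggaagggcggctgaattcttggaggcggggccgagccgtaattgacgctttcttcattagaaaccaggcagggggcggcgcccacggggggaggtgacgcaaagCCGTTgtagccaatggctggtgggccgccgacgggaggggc

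All 3 stretches were rich in CpG, with 25 CpG for Smarca4, 28 for Smarca2 and 23 for Hdac4. The median was 21 CpG over 64 promoters of 44 chromatin genes tested and 6 over all 32851 promoters. Each stretch held 1 match, starting 219 bases before the start site for Smarca4, 119 for Smarca2 and 41 for Hdac4. Such a match stood in 23 of the 64 chromatin gene promoters (35.9%) and in 48.6% of all promoters, and it was present in the gene that was lower as in those that were higher. A match is a description of the letters, not a binding site.

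Arid2 encodes a subunit of PBAF, a form of SWI/SNF. It read 2438.1, 2426.9, 2202.4 and 2901.4 in deficient mice, against 3668.7, 3819.8, 3247.2 and 3079.5 in sufficient mice (1426525_at). The groups did not overlap, though deficient mouse 4 came close to sufficient mouse 4. The log2 difference was -0.47 ± 0.10 (SE, adjusted p = 0.0141), or 1.39-fold lower, and 3 of its 4 probe sets passed in the test over probe sets, all lower. The fourth, 1432483_at, was near the low-signal limit on several arrays.

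No other SWI/SNF or ISWI gene among the 55 passed. Smarcb1, Smarcc1 and Smarce1, which encode core subunits, differed by -0.0007, -0.02 and -0.12. Arid1a and Arid1b, genes of the alternative ARID subunits of the canonical complex, differed by -0.12 and 0.14. For Arid1b the interval was -0.13 to 0.42, and sufficient mouse 1 read 763 against 571.5 to 585.3 in the other sufficient mice. Smarca5, the ISWI ATPase gene, read 1937.3 to 2406.8 in deficient and 2050.1 to 3129.2 in sufficient mice, with an interval of -0.50 to 0.08 for its log2 difference. Outside the 55 genes, Ss18, another SWI/SNF subunit gene, read 2155.9, 2213.7, 2275.5 and 2614.2 in deficient mice, against 1674.2, 1849.5, 1855.1 and 1843.5 in sufficient mice. All deficient mice were above all sufficient mice, with a log2 difference of 0.35 ± 0.08 (SE, adjusted p = 0.0211 in limma). In all, 1 of the 10 SWI/SNF and ISWI genes among the 55 was higher, 2 were lower and 7 did not pass. Over all genes tested, 5.89% were higher and 4.08% lower.

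**Figure D2:**
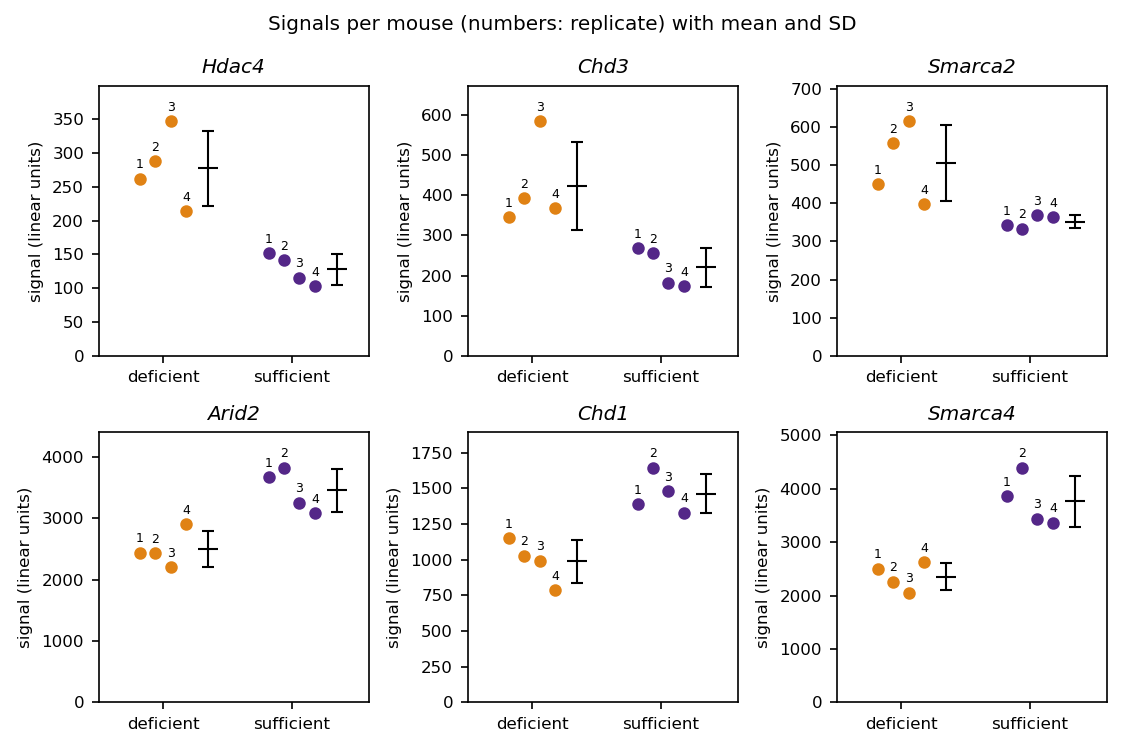
Linear signal of the 6 genes that passed in each of the 4 deficient (left, orange) and 4 sufficient mice (right, purple), numbered by replicate, with the mean and SD. The groups do not overlap in any of the 6 panels, and deficient mouse 3 is the highest mouse for Hdac4 (346.8), Chd3 (584.4) and Smarca2 (615).

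CHD remodellers also moved both ways. Chd3, which encodes the Mi-2α ATPase of the NuRD deacetylase complex, read 345.7, 393.4, 584.4 and 368.2 in deficient mice, against 268.4, 255.6, 182.4 and 174.2 in sufficient mice (1428466_at, its sole probe set). Deficient mouse 3 was far above the other deficient mice, and the lowest deficient mouse was still above all sufficient mice. The log2 difference was 0.89 ± 0.19 (SE, adjusted p = 0.0126), or 1.85-fold higher. Without deficient mouse 3 it was 0.73 (adjusted p = 0.0293).

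Chd1, a remodeller that binds active promoters, read 1151.6, 1028, 993.4 and 786.6 in deficient mice, against 1389.1, 1644.6, 1479.5 and 1330.7 in sufficient mice (1420990_at). All deficient mice were below all sufficient mice, with a log2 difference of -0.56 ± 0.12 (SE, adjusted p = 0.0136), or 1.48-fold lower. Its 3 other probe sets were negative too, at -0.20, -0.39 and -0.29, but none of these passed, and with the mean of all 4 the difference was -0.36 (adjusted p = 0.0680). Chd4, the gene of Mi-2β, the other NuRD ATPase, read 965.8 to 1218.7 in deficient and 858.2 to 1090.3 in sufficient mice. It differed by 0.20 (interval -0.03 to 0.44) and did not pass.

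Hdac4, a class IIa deacetylase gene whose product represses MEF2 target genes, had the largest rise of the 55 genes. It read 262, 287.8, 346.8 and 213.6 in deficient mice, against 151.6, 141.2, 115.8 and 102.9 in sufficient mice (1454693_at). Every deficient mouse was above every sufficient mouse. The means were 278 ± 55.5 in deficient and 128 ± 22.4 in sufficient mice (SD, n = 4 each), a log2 difference of 1.02 ± 0.16 (SE, adjusted p = 0.0031), or 2.03-fold. Its other probe sets differed by 0.71 (1436758_at, adjusted p = 0.0692) and 0.75 (1447566_at, adjusted p = 0.0189).

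The other deacetylase genes did not pass. The class IIa genes Hdac5 and Hdac7 differed by 0.11 and 0.14, and the class I genes Hdac1, Hdac2 and Hdac3 by 0.01, -0.05 and -0.09. Sirt1, a NAD-dependent deacetylase gene, read 917.4, 668.1, 798.9 and 970.7 in deficient mice, against 931, 990.1, 1103.2 and 1128.2 in sufficient mice. The groups overlapped through deficient mouse 4, and the difference of -0.31 (interval -0.58 to -0.04) had an adjusted p of 0.139. Sirt6 differed by -0.16, with signals of 67.5 to 102.8 in deficient and 71.9 to 104.8 in sufficient mice.

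**Figure D3:**
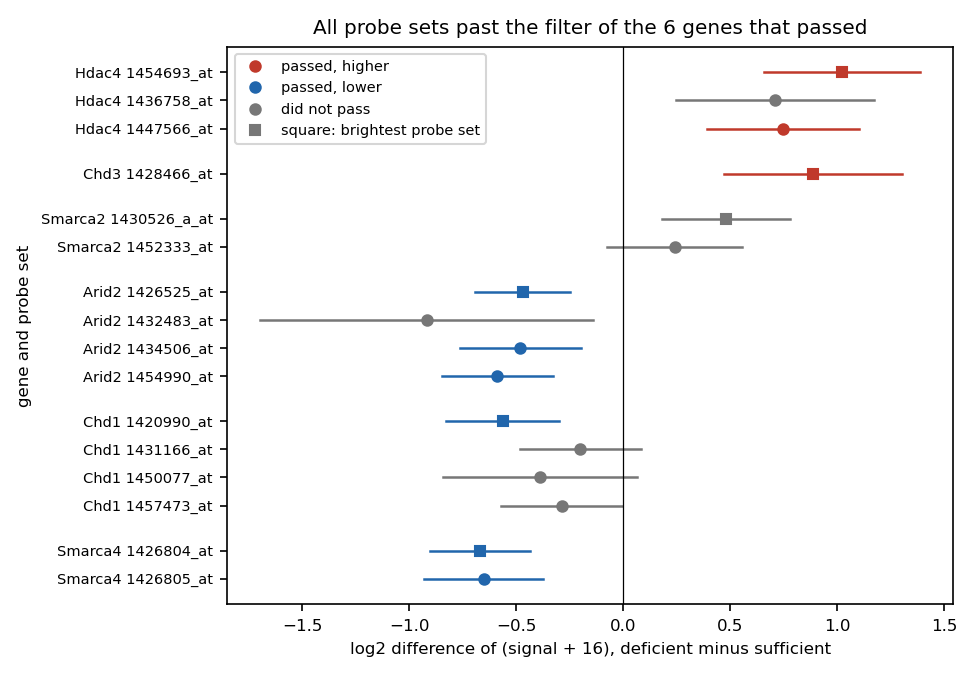
Log2 difference of signal plus 16, deficient minus sufficient, for all 16 probe sets past the filter of the 6 genes that passed, with 95% intervals. Squares mark the brightest probe set of each gene, and colours mark the test over all probe sets, in which neither Smarca2 probe set passed.

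When every probe set was tested, 10 of 124 probe sets of these genes passed, 3 higher and 7 lower (8.06%), against 6.98% of all single-symbol probe sets. They belonged to Arid2, Chd1, Chd3, Hdac4, Smarca4 and Dnmt3a. Dnmt3a, a gene of de novo DNA methylation, was called on 1423066_at, 1 of its 5 probe sets. That probe set read 165.1, 117, 143.8 and 94.8 in deficient mice, against 218, 176.9, 225.6 and 214 in sufficient mice. Its log2 difference was -0.64 (adjusted p = 0.0407), while the other 4 probe sets lay between -0.29 and -0.09 and did not pass. Of the 38 chromatin genes with several probe sets past the filter, 13 had probe sets of both signs.

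No gene of PRC2, the Polycomb complex that methylates histone H3, passed in limma (0 of 4, and 0 at an unadjusted p under 0.05). Ezh2, its main catalytic gene in dividing cells, read 3587.2, 3399.2, 2555.2 and 4207 in deficient mice, against 3691.9, 3359.4, 4310.4 and 4530.6 in sufficient mice. The groups overlapped, and deficient mouse 3 was the lowest of all 8. The log2 difference was -0.22 (interval -0.54 to 0.10, adjusted p = 0.388). Suz12 and Eed, core subunit genes, differed by -0.11 and 0.02, and Ezh1, the alternative catalytic gene, by -0.05. The other Suz12 probe sets were more negative, at -0.50 to -0.17, and none passed over probe sets. Of these, 1427253_s_at and 1449661_at had unadjusted p of 0.0267 and 0.0185 in limma.

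PRC1, which ubiquitinates histone H2A, had 0 of 7 genes past the limma test and 3 at an unadjusted p under 0.05, a level that 25.1% of all genes reached. These were Cbx7, Bmi1 and Rnf2, all with lower means in deficient mice. Cbx7, a reader of the PRC2 mark, read 181.7, 169.9, 62.8 and 103.2 in deficient mice, against 202.6, 282.4, 234.2 and 171.9 in sufficient mice. Its difference of -0.79 was the most negative of the 55 genes, but its interval of -1.38 to -0.19 was wide and the adjusted p was 0.0933. Deficient mice 1 and 2 were close to the lowest sufficient mouse, mouse 4.

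Bmi1, the partner of the PRC1 ubiquitin ligases, read 666.3, 520.3, 494.2 and 772.5 in deficient mice, against 703.1, 773.3, 947 and 970.2 in sufficient mice. Deficient mouse 4 overlapped the sufficient group, and the difference was -0.47 (adjusted p = 0.0842). The ubiquitin ligase gene Rnf2 read 1407.8, 1307.4, 1351.8 and 1621.6 in deficient mice, against 1607.2, 1763.6, 1904.9 and 1705.7 in sufficient mice. Here too the overlap came from deficient mouse 4, and the difference was -0.29 (adjusted p = 0.0657). Without deficient mouse 4, Bmi1 and Rnf2 passed (adjusted p = 0.0286 and 0.0229). Their other probe sets were unlike each other. For Rnf2, 1451519_at had groups that did not overlap, with a difference of -0.36 (adjusted p = 0.0549 over probe sets). The dim 1448042_s_at differed by -0.26 (adjusted p = 0.597). For Bmi1, 1448733_at had groups that overlapped, with a difference of -0.24 (adjusted p = 0.605). Ring1, the second ligase gene, had the opposite sign, at 0.20 (adjusted p = 0.265).

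DNA methylation genes did not pass on their brightest probe sets (0 of 5 in limma, and 0 at an unadjusted p under 0.05). Dnmt1, the maintenance methyltransferase gene, read 1780.7 to 2545.9 in deficient and 1884.5 to 2685.7 in sufficient mice, with a difference of -0.04 (interval -0.33 to 0.25). Dnmt3b, a second de novo methyltransferase gene, read 134.1, 142.1, 236.2 and 121.2 in deficient mice, against 99.7, 142, 102.1 and 131.8 in sufficient mice. Its difference of 0.34 (adjusted p = 0.318) was 0.15 without deficient mouse 3. A dimmer Dnmt3b probe set, 1418351_a_at, read 66.8, 61.3, 64.9 and 43.5 in deficient mice, against 32.2, 40.7, 35.6 and 39.7 in sufficient mice. Its groups did not overlap, with a difference of 0.49 (adjusted p = 0.115 over probe sets). Tet2, which oxidises methylcytosine, differed by 0.32 (interval -0.07 to 0.71), and Tet1 by 0.11.

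Of 4 acetyltransferase genes 0 passed in limma and 1, Kat2a, had an unadjusted p under 0.05. Kat2a, which encodes GCN5, read 490.2, 413, 468.1 and 585.3 in deficient mice, against 397, 295.3, 432.4 and 435.7 in sufficient mice. Only deficient mouse 2 fell within the sufficient range, and the difference of 0.32 had an adjusted p of 0.193. The other Kat2a probe sets differed by -0.29 (1422971_at) and 0.06 (1422972_s_at). Its paralogue Kat2b differed by 0.04 (interval -0.16 to 0.23), Kat6a by 0.03 and Kat6b by 0.12.

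Demethylase genes gave 0 of 5 calls in limma and 2 at an unadjusted p under 0.05 (25.1% of all genes), Kdm6b and Kdm1a. Kdm6b, which removes the PRC2 mark, read 1525.8, 1581.6, 1684 and 1469.3 in deficient mice, against 2287.4, 1990.4, 1881.4 and 1618.3 in sufficient mice. Sufficient mouse 4 lay within the deficient range. The difference was -0.30 (adjusted p = 0.0958), but its 2 other probe sets were positive, at 0.10 and 0.29. Kdm1a, the gene of LSD1, differed by -0.19 (interval -0.35 to -0.03, adjusted p = 0.134), and Kdm2b, whose product binds CpG islands, by -0.19.

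Genes of histone H3 methylation had 0 of 7 calls in limma and 1 at an unadjusted p under 0.05. That gene was Setd2, which marks transcribed gene bodies. It read 1030.3, 1198.6, 1005 and 1006.6 in deficient mice, against 1392.8, 1313.6, 1276.9 and 1162.1 in sufficient mice, a difference of -0.28 (adjusted p = 0.0835). Setdb1, a gene of retroelement silencing, read 519.8 to 563.8 in deficient and 587 to 626.6 in sufficient mice. These groups did not overlap, yet the difference was -0.14 (interval -0.32 to 0.04, adjusted p = 0.312). Ehmt2, the gene of G9a, differed by 0.03 (interval -0.13 to 0.20), and Nsd1, Dot1l, Men1 and Ehmt1 by 0.09, 0.05, -0.14 and -0.02. The other Ehmt2 probe set, 1426888_at, differed by -0.40 (interval -0.73 to -0.08, adjusted p = 0.131 over probe sets). For Men1 the others differed by -0.31 (1416348_at, groups not overlapping) and -0.27, and for Dot1l by -0.13. Those of Nsd1 and Setdb1 had both signs, and none of these passed over probe sets.

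Ctcf, the gene of the main insulator protein, read 3578.1, 3455.9, 2926.3 and 3638.1 in deficient mice, against 3766.5, 3851.3, 4464.2 and 4451.3 in sufficient mice. Its groups did not overlap, with a difference of -0.28 ± 0.09 (SE, interval -0.48 to -0.08), and the adjusted p was 0.0784. The second probe set differed by -0.21 (adjusted p = 0.294 over probe sets). Brd2, which reads acetylated histones, differed by 0.05 (interval -0.12 to 0.21).

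**Figure D4:**
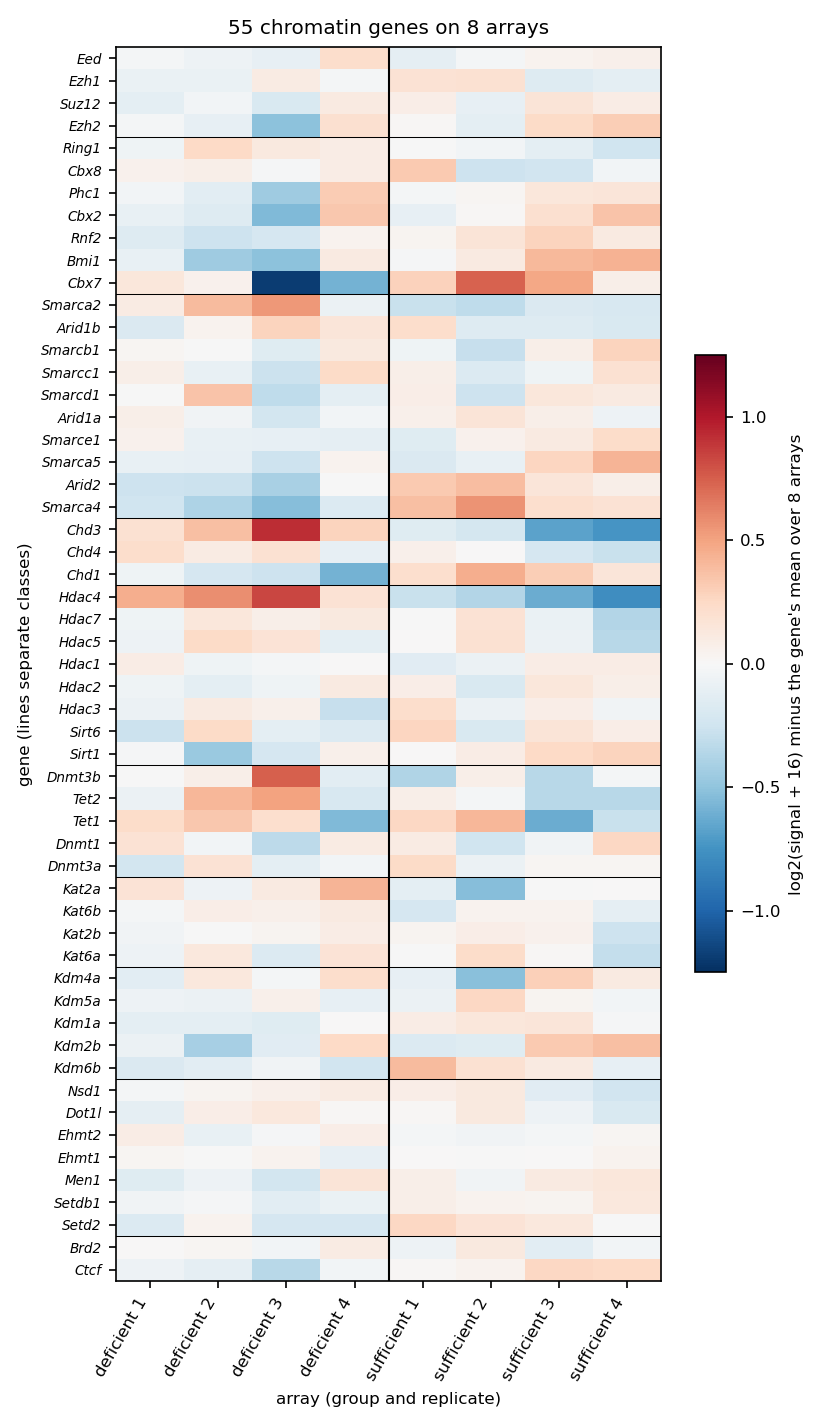
Log2 of signal plus 16, minus the mean of each gene over the 8 arrays, for the 55 chromatin genes tested, with 4 deficient (left) and 4 sufficient arrays (right). Deficient array 3 is blue for Ezh2, Phc1, Cbx2, Bmi1 and Cbx7 and red for Chd3, Hdac4 and Dnmt3b.

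Variation between deficient mice was not even across these genes. Deficient mouse 3 was the lowest of its group for 23 of the 55 genes (41.8%), against 29.8% of all genes tested, and deficient mouse 4 was the highest for 26 (47.3%), against 34.6%. Cbx2 and Phc1, both PRC1 genes, showed it: Cbx2 read 203.8 in deficient mouse 3 and 272.4 to 390.3 in the other deficient mice. Phc1 read 512.9 in deficient mouse 3 and 639.2 to 883.4 in the others. The summed signal of 17 proliferation genes was 51969.1 in deficient mouse 3, the lowest of the 8 mice, against a highest of 74876.6 in deficient and a range of 59146.5 to 77886.6 in sufficient mice. None of the 17 proliferation genes passed between the groups in limma, nor at an unadjusted p under 0.05. The part of proliferation in the levels of these genes was not tested.

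With Xist high or low added to the limma model, deficient mice were in effect compared with sufficient mouse 1 alone, and 0 of the 55 genes passed, against 26 of all 9941 genes (0.262%). At an unadjusted p under 0.05 that model had 7 of the 55 genes (12.7%) and 10.3% of all genes. The median SE of the 55 genes was 0.175 in that model and 0.112 without it. Differences of the 6 changed genes in that model were 0.79 for Hdac4, 0.60 for Chd3, 0.52 for Smarca2, -0.50 for Chd1, -0.56 for Arid2 and -0.71 for Smarca4. Their adjusted p ran from 0.153 for Smarca4 to 0.526 for Chd3. Sufficient mouse 1, the one with high Xist, was the nearest of the sufficient mice to the deficient group for Chd3 and Hdac4, but not for Smarca2, Smarca4, Arid2 or Chd1.

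The 2 genes under the low-signal filter were dim in both groups. Chd7, a CHD remodeller gene, read 37.3, 49.7, 45.9 and 16.9 on its brighter probe set 1448026_at in deficient mice, against 2.5, 15.7, 6.8 and 6.8 in sufficient mice. Only 3 deficient arrays were above the limit of 33.8. Tet3 read 43.3, 22.5, 16.2 and 22.2 in deficient mice, against 10.2, 3.4, 6.6 and 8.6 in sufficient mice, with 1 deficient array above the limit.

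Beyond the 58 genes, 137 further chromatin genes were listed, of which 121 were tested. Of these 6 were higher, 5 were lower and 110 did not pass (9.09% called), with a median log2 difference of -0.05. That share was near the 9.98% of all genes that passed. The counts by group below are to be read against 5.89% of all genes higher and 4.08% lower. The largest rises were Smyd2, a lysine methyltransferase gene, Carm1, an arginine methyltransferase gene, and Phf19, a PRC2 accessory gene. Smyd2 read 483.3, 425.5, 544 and 411.7 in deficient mice, against 246, 193.2, 200.6 and 289 in sufficient mice (log2 0.97 ± 0.14, SE, adjusted p = 0.00206). Carm1 was higher by 0.63 and Phf19 by 0.50.

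The largest falls were Mbd1, whose product binds methylated CpG, Kdm3a, a histone H3 demethylase gene, and Mta2, a NuRD subunit gene. Mbd1 read 729.8, 765.3, 721 and 835.7 in deficient mice, against 1011.2, 1100.6, 1193.2 and 1045.1 in sufficient mice (log2 -0.50 ± 0.09, SE, adjusted p = 0.00563). Kdm3a differed by -0.44 and Mta2 by -0.38 on the log2 scale. By group, 2 of 19 further Polycomb genes were higher (Phf19 and Pcgf1) and 1 was lower (Pcgf3), and 1 of 35 further remodeller genes was higher (Ss18) and 1 was lower (Mta2). Among 35 further histone methylation genes 3 were higher and 1 was lower. Of 11 further acetyltransferase and bromodomain genes 0 passed in limma (0 at an unadjusted p under 0.05), with differences of -0.27 to -0.006. Of 8 cohesin and architecture genes 0 passed (2 at an unadjusted p under 0.05).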

How the data were processed

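Each mouse was hybridised to its own array, so the spread between arrays holds that between mice and that of sample handling. The 2 cannot be told apart here. The deposited table holds linear intensities (signals) per probe set, made with GCOS per the submitters' processing notes, with no version or settings stated there. Each array had a 2% trimmed mean of 250.001, so the authors' values were already scaled to a common level, which hides differences in total RNA. For arrays, their number limits the precision.

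Of 45101 probe sets, 64 controls were left out, and the platform annotation gave 34945 a single symbol, 932 several and 9160 none. Gene identifiers of 34741 were found in RefSeq. Probe sets with a signal above 33.8, the median of the table, on at least 4 of 8 arrays were kept, with the brightest for each gene. Values were converted to log2(signal + 16), a scale that understates the change of dim genes. Fold differences were taken from the log2 differences on this scale, so they are not ratios of the mean signals. The groups were then compared by limma 3.58.1 under R 4.3.3 (lmFit, eBayes with a variance trend, two-sided, Benjamini-Hochberg over 9941 genes). All adjusted p-values are from limma, over genes unless said to be over probe sets, and intervals are 95%. Plots came from matplotlib 3.10.9 and tables from pandas 2.3.3 on Python 3.11.15. The members, the gene lists and the alternatives, the Xist class included (high above a signal of 1000), were chosen with earlier results of these data known. All of the 55 genes that passed are named, as are the 2 with the largest difference among those that did not in each class and the brightest of a class with none, and the 3 largest rises and falls among the further chromatin genes that passed. Genes named beyond this rule complete a complex or family and were chosen after their values were seen. The fit was tested on simulated data with known changes. It called 12% of 1.25-fold, 52% of 1.5-fold, 82% of 2-fold and 100% of 4-fold changes, and 7 of its 130 calls were false. A gene that did not pass can therefore still hold a change of the smaller sizes.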

Additional observations from a re-analysis of the deposited data

Results flagged for a closer look

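In 6 of the 110 groups of 4 mice examined for the 55 chromatin genes, 1 mouse stood apart from its 3 group mates, where about 1 group in 20 is expected by chance. Smarce1 read 1924.4 in deficient mouse 1 and 1717.8 to 1735.7 in the other deficient mice. Setd2 read 1198.6 in deficient mouse 2 and 1005 to 1030.3 in the others. Among sufficient mice, Arid1b read 763 in mouse 1 (others 571.5 to 585.3), Smarcd1 read 145.7 in mouse 2 (others 188.8 to 197.6), Kat2b read 1540.3 in mouse 4 (others 1891 to 1945.3) and Ehmt1 read 1573.7 in mouse 4 (others 1524.2 to 1532.2). None of these 6 genes passed the test between groups in limma (1, Setd2, at an unadjusted p under 0.05). Outside the genes tested, Chd7 reached 49.7 in deficient mice on 1448026_at, against 2.5 to 15.7 in sufficient mice, and it passed as higher when no filter was applied.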

How the results depend on the processing

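The same 6 chromatin genes passed with pseudocounts of 1 and 64, with signal above the limit required on all 8 arrays and without probe sets prone to cross-hybridise. Array weights gave 1745 calls over all genes, 8 chromatin genes lower and 22 further chromatin genes called. Quantile normalization gave 5 lower. Without a filter 7 further chromatin genes were called. With the Xist class in the model, 26 genes passed in all, 0 chromatin genes higher, 0 lower and 0 further ones, and Smarca5, Arid1b, Kat2b and Kdm2b changed sign, to 0.079, -0.14, -0.019 and 0.075. At an adjusted p under 0.01, 371 genes passed in all, and 1 chromatin gene each way. Smarca2 lost the call without a filter, with the mean of its probe sets and without a variance trend, and Chd1 with the mean of its probe sets. That mean turned the sign of Kat2b to -0.017, Kdm6b to 0.032 and Ehmt2 to -0.19, and without cross-hybridising probe sets Kat2b was -0.22.

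Leaving out each mouse in turn gave 494 to 1195 calls over all genes, 2 to 3 chromatin genes higher, 3 to 5 lower and 4 to 12 further chromatin genes, with a median difference over the chromatin genes of -0.08 to -0.02. The total was 605, 515 and 578 without deficient mice 1, 2 and 3 and 494 without sufficient mouse 3. Without deficient mouse 4, 5 chromatin genes were lower. Further chromatin genes numbered 7 and 5 without deficient mice 1 and 2 and 4 without sufficient mouse 3. Hdac4, Chd3, Smarca4, Arid2 and Chd1 passed in all 8 of these fits. Dnmt1 ranged from -0.13 to 0.067 and was positive without deficient mouse 3 or sufficient mouse 4 (0.043). Kat2b ranged from -0.039, without sufficient mouse 4, to 0.072. The causes were not tested. With the replicate number as a replicate block, 1035 genes passed in all, 3 chromatin genes higher and 4 lower, with Cbx7 added. Deviations of same-numbered mice correlated at 0.0037, 0.17, -0.27 and 0.36 over genes. These values do not show that the numbers pair the mice, and so few of them cannot exclude it. Dim signals, such as those of Chd7 and Tet3, limit what can be measured.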
